A study of Mus musculus with 10 samples.

Results

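Lcn2, Saa3, Cxcl1, Cxcl2, Cxcl5, Ccl2, Ccl7, Csf1, Csf3 and Il6 are inflammatory genes that mammary tumor cells can express, and their transcripts were followed here in CD8+ T cells that had been cultured with tumor cells. These 10 genes were selected by name out of 57825 listed in the gene table, and each matched 1 row. RNA sequencing compared 2 groups of 5 samples. In both, CD8+ T cells were taken from the spleens of female Balb/c mice with magnetic beads, activated for 12 h on anti-CD3 plates with anti-CD28 and IL-2, and co-cultured for 48 h with 4T1, a mouse mammary carcinoma line. The CD8+4T1+NaAc group was also treated with 5 mM sodium acetate (NaAc), given for 24 h before the co-culture in the study's general protocol, whereas the CD8+4T1 group did not. The labels place both groups at day 3 and state that the RNA came from purified CD8+ T cells, and they do not say whether the samples came from separate mice. The p-values therefore measure the spread between these samples. No library of 4T1 cells alone was analysed here.

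Chemokines are small secreted proteins that guide leukocytes along concentration gradients through G protein-coupled receptors. Those of the Cxcl1, Cxcl2 and Cxcl5 type attract neutrophils through Cxcr2, and Ccl2 and Ccl7 attract monocytes through Ccr2. Colony-stimulating factors drive the growth of myeloid cells, and 4T1 tumors are known for producing G-CSF, the product of Csf3, and for the neutrophilia that accompanies it. Il6 is a cytokine that induces acute-phase proteins, the group to which lipocalin 2 (Lcn2) and serum amyloid A3 (Saa3) belong. Many of these genes are induced through the transcription factors NF-kB and C/EBP.

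Upstream sequence was found for 6 of the 10 members (Lcn2, Saa3, Cxcl1, Cxcl2, Csf1 and Il6) in RefSeq promoters of GRCm38.p6. Cxcl5, Ccl2, Ccl7 and Csf3 had no entry. The 250 bases before the annotated start were searched on both strands for the NF-kB-like letters GGGNNTTTC and the C/EBP-like letters TTGCNNAA, and 4 sequences are printed. Cxcl1 and Cxcl2 are shown because they are adjacent genes whose transcripts behaved differently, Il6 because it held both motifs, and Lcn2 because it was among the genes with the largest change. Capitals mark each match, and a match on the opposite strand appears as its reverse complement.
Cxcl1: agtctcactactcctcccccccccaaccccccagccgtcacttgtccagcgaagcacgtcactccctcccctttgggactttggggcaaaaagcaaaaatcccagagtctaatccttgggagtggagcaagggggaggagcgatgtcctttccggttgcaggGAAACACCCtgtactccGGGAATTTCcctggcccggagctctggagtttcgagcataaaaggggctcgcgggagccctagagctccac
Cxcl2: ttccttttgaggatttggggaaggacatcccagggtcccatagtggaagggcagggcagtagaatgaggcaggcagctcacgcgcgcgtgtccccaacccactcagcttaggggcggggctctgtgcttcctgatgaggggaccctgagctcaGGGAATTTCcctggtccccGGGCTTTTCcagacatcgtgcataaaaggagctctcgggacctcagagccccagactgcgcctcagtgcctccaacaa
Il6: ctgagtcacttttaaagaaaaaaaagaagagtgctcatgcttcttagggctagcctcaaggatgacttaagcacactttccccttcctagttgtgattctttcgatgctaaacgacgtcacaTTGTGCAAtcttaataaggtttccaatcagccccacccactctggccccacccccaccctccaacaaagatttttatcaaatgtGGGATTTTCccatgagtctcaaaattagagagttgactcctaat
Lcn2: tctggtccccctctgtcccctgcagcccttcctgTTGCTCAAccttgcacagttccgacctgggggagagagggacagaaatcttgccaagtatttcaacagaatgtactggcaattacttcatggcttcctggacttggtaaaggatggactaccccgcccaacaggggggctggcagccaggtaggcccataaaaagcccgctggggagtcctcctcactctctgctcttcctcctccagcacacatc
These windows lie at chr5:90890995-90891244 on the plus strand (Cxcl1), chr5:90903649-90903898 on the plus strand (Cxcl2), chr5:30012864-30013113 on the plus strand (Il6) and chr2:32387740-32387989 on the minus strand (Lcn2). The GGGNNTTTC letters occurred in 4 of the 6 members with a sequence (Cxcl1, Cxcl2, Il6 and Csf1), against 3.72% of all 32851 promoters in the table. The TTGCNNAA letters occurred in 3 of the 6 (Lcn2, Il6 and Saa3), against 9.56% of all promoters. Cxcl1 and Cxcl2 each held 2 NF-kB-like matches, and both contained GGGAATTTC, which began 71 bases before the start in Cxcl1 and 97 bases before it in Cxcl2. These matches describe the letters only.

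Expression was given as fragments per kilobase of gene length, scaled to sequencing depth (FPKM), which allows levels of different genes to be compared. The values corresponded to 16306447 to 18853726 fragments per sample, and 15710 genes whose mean level over all samples reached 0.5 FPKM were tested with limma on log2(FPKM + 0.1). The share of these fragments in listed genes was 95.5% to 97.9% without NaAc and 89.8% to 92.1% with it. Replicate 1 of the NaAc group stood apart, with an R2 across genes (log2 of FPKM + 1) of 0.952 to 0.955 with the other 4 samples of its group, which had 0.980 to 0.983 among themselves. Without it, the same number of members was called higher (8), and without replicate 1 of both groups 7 were. A gene was called higher or lower when its Benjamini-Hochberg adjusted p was below 0.05. With NaAc, 17.6% of all tested genes were called higher and 19.0% were called lower, and the median log2 fold change of all tested genes was -0.02. Of the 10 members, 9 passed the filter, 8 were called higher, 0 were called lower and Cxcl2 was not called. The median log2 fold change of the 9 tested members was 2.74. A log2 fold change above 1 together with an adjusted p below 0.05 was found for 6 members, compared with 4.87% of all tested genes. In 6 members (Csf3, Lcn2, Cxcl5, Cxcl1, Ccl2 and Csf1) all 5 CD8+4T1+NaAc samples lay above all 5 CD8+4T1 samples, which held for 13.1% of all tested genes.

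**Figure D1:**
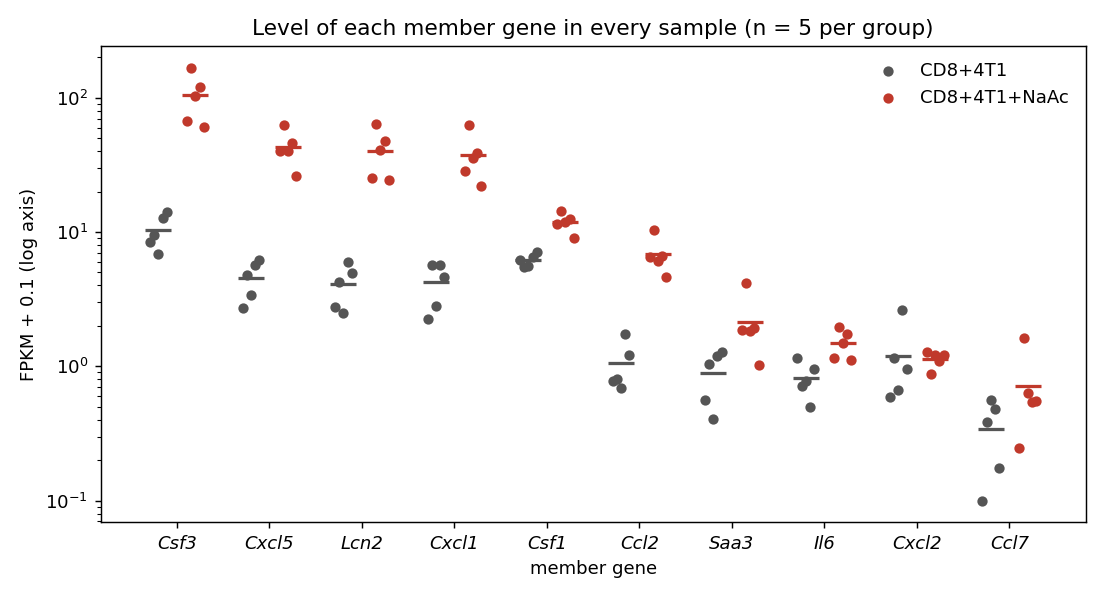
FPKM + 0.1 on a log axis for the 10 member genes, ordered by their mean in CD8+4T1+NaAc. Each point is 1 sample (n = 5 per group), and horizontal lines are group means of FPKM + 0.1. The groups are apart for Csf3, Cxcl5, Lcn2, Cxcl1, Csf1 and Ccl2, and overlap for Saa3, Il6, Cxcl2 and Ccl7.

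The neutrophil-attracting chemokines Cxcl1 and Cxcl5 rose about equally, whereas Cxcl2, encoded next to Cxcl1, did not pass the test. Cxcl1 (ENSMUSG00000029380, chr5:91039100-91040974, plus strand, positions as the deposited table lists them) had 2.14, 5.63, 2.71, 5.63 and 4.56 FPKM in the CD8+4T1 samples. In the CD8+4T1+NaAc samples it had 28.6, 63.0, 35.3, 38.7 and 21.8 FPKM. The lowest sample with NaAc thus lay well above the highest without, and replicate 2 stood highest within the NaAc group. The means were 4.13 ± 1.63 and 37.5 ± 15.7 FPKM (SD, n = 5 each), a 9.07-fold ratio of means. The log2 fold change was 3.16 ± 0.33 (SE, limma adjusted p = 8.1e-05).

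Cxcl5 (ENSMUSG00000029371, chr5:90907219-90909483, plus strand), a further ligand of Cxcr2, had 2.63, 4.71, 3.29, 5.54 and 6.08 FPKM without NaAc and 39.9, 62.5, 39.9, 46.1 and 26.2 FPKM with it. The groups did not overlap, and the order of the NaAc samples again ran from replicate 5 at the bottom to replicate 2 at the top. The means were 4.45 ± 1.46 and 42.9 ± 13.1 FPKM, with a log2 fold change of 3.25 ± 0.27 (SE, limma adjusted p = 2.63e-05).

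Cxcl2 (ENSMUSG00000058427, chr5:91051730-91053797, plus strand), also a Cxcr2 ligand, had 0.492, 1.05, 0.563, 2.52 and 0.850 FPKM without NaAc. With NaAc it had 1.19, 0.769, 1.11, 1.0 and 1.11 FPKM. All NaAc samples fell inside the range of the samples without, and the highest value of all came from replicate 4 of the CD8+4T1 group. The means were 1.10 ± 0.829 and 1.04 ± 0.163 FPKM, and the log2 fold change of 0.14 ± 0.36 (SE) had an adjusted p of 0.798 in limma. Its 95% interval ran from -0.66 to 0.93. These values rested on 17 to 86 fragments per sample, and without CD8+4T1 replicate 4 the log2 fold change was 0.47 (limma adjusted p = 0.162).

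The 3 genes were also compared with each other within each sample, in a comparison chosen after their values were seen. The log2 ratio of Cxcl1 to Cxcl2 was 1.95 ± 0.49 (SD) without NaAc and 4.97 ± 0.77 with it, a difference of 3.02 (unadjusted two-sided exact permutation p = 0.00794, the smallest that 5 against 5 samples allow). For Cxcl5 to Cxcl2 the difference was 3.12, with the same exact permutation p. The log2 ratio of Cxcl1 to Cxcl5 was -0.14 ± 0.27 without NaAc and -0.23 ± 0.18 with it, and this difference of -0.09 was within the spread of the samples (exact permutation p = 0.563). Another ratio is given with the colony-stimulating factors, so 4 such ratios were tested in all.

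In the table, Cxcl1 and Cxcl2 were 10.755 kb apart, and Cxcl5 lay 129.616 kb before Cxcl1. Between Cxcl5 and Cxcl1 the table lists 4 further chemokine genes of the cluster: Ppbp, Pf4, Cxcl3 and Cxcl15. Ppbp, which encodes the platelet chemokine precursor of NAP-2, had 7.44 ± 3.27 FPKM without and 7.89 ± 2.21 FPKM with NaAc. Pf4, platelet factor 4, had 7.48 ± 2.65 and 6.44 ± 1.03 FPKM. Cxcl3, a close relative of Cxcl1 and Cxcl2, had 0.805 ± 0.268 and 1.03 ± 0.322 FPKM. None of these 3 passed the limma test (log2 fold changes of 0.15, -0.14 and 0.32, adjusted p of 0.716, 0.688 and 0.357), and Cxcl15 was listed at 0 in all 10 samples. Thus only Cxcl5 and Cxcl1 were called among the 6 genes of this chemokine cluster that were tested.

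Of the monocyte-attracting CC chemokines, Ccl2 rose and Ccl7 was too scarce to be tested. Ccl2 (ENSMUSG00000035385, chr11:81926397-81928279, plus strand) had 0.684, 0.705, 0.593, 1.65 and 1.12 FPKM without NaAc and 6.42, 10.2, 6.02, 6.49 and 4.50 FPKM with it. Every NaAc sample lay above every sample without. The means were 0.951 ± 0.442 and 6.73 ± 2.11 FPKM, the ratio of means was 7.08, and the log2 fold change was 2.74 ± 0.28 (SE, limma adjusted p = 5.48e-05). Ccl2 shares part of its span with Gm17268 on the opposite strand, which was listed at 0 in all samples.

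Ccl7 (ENSMUSG00000035373, chr11:81936538-81938351, plus strand), which begins 8.258 kb after Ccl2, had 0, 0.286, 0.459, 0.379 and 0.0757 FPKM without NaAc and 0.146, 1.52, 0.530, 0.443 and 0.451 FPKM with it. The value of 0 allowed up to 0.224 FPKM (3 fragments, counting error only). Replicate 2 of the NaAc group held the highest value, and the groups overlapped. In all, 16 fragments were counted over the 5 samples without NaAc and 44 over the 5 with it, and the gene fell below the filter. When no filter was applied, the log2 fold change was 1.07 with a 95% interval from -0.22 to 2.37 (limma adjusted p = 0.289).

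Of the 2 colony-stimulating factors among the members, Csf3 was the most abundant member in both groups and changed 10.2-fold, while Csf1 changed 1.94-fold. Csf3 (ENSMUSG00000038067, chr11:98592089-98594455, plus strand), the growth factor for neutrophil precursors, had 8.39, 9.33, 6.73, 12.6 and 14.0 FPKM without NaAc. With NaAc it had 67.6, 167.8, 103.9, 120.5 and 60.9 FPKM. The groups were far apart, and the NaAc samples varied among themselves, with replicates 2 and 4 high and replicates 1 and 5 low. The means were 10.2 ± 3.02 and 104.1 ± 43.4 FPKM, and the log2 fold change was 3.29 ± 0.29 (SE, limma adjusted p = 3.48e-05).

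Csf1 (ENSMUSG00000014599, chr3:107648364-107667785, minus strand), the growth factor of macrophages, had 6.07, 5.35, 5.46, 6.38 and 7.05 FPKM without NaAc and 11.4, 14.2, 11.9, 12.4 and 8.96 FPKM with it. These groups did not overlap either, although the distance between them was small. The means were 6.06 ± 0.696 and 11.8 ± 1.89 FPKM, and the log2 fold change was 0.94 ± 0.12 (SE, limma adjusted p = 0.000181). The log2 ratio of Csf3 to Csf1 within a sample was 0.70 ± 0.31 (SD) without NaAc and 3.05 ± 0.40 with it, a difference of 2.35 (unadjusted exact permutation p = 0.00794).

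Lcn2 rose 10.1-fold by its ratio of means, and the calls of Saa3 and Il6 came with smaller fold changes and overlapping groups. Lcn2 (ENSMUSG00000026822, chr2:32274645-32278264, minus strand), an iron-siderophore-binding protein, had 2.65, 4.15, 2.41, 5.85 and 4.87 FPKM in the CD8+4T1 samples. With NaAc it had 25.2, 63.7, 40.4, 47.5 and 24.4 FPKM, so that replicate 2 was highest and replicates 5 and 1 were lowest. All NaAc samples lay above all samples without, and the log2 fold change was 3.28 ± 0.32 (SE, limma adjusted p = 5.33e-05).

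Saa3 (ENSMUSG00000040026, chr7:46361422-46365124, minus strand), a serum amyloid A protein made mainly outside the liver, had 0.459, 0.946, 0.306, 1.09 and 1.19 FPKM without NaAc and 1.77, 4.05, 1.72, 1.81 and 0.924 FPKM with it. Of the NaAc samples, 4 lay above all samples without, and replicate 5 fell among them. The means were 0.798 ± 0.393 and 2.06 ± 1.17 FPKM, and the log2 fold change was 1.25 ± 0.41 (SE, limma adjusted p = 0.0350). When samples were left out 1 at a time, 5 of the 10 fits lost this call: without CD8+4T1 replicate 1 or 3 (adjusted p = 0.0772 and 0.0762) and without CD8+4T1+NaAc replicate 2, 3 or 4 (adjusted p = 0.0766, 0.0595 and 0.0641).

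Il6 (ENSMUSG00000025746, chr5:30218112-30224979, plus strand) had 1.06, 0.614, 0.682, 0.400 and 0.849 FPKM without NaAc and 1.06, 1.88, 1.40, 1.63 and 1.02 FPKM with it. Replicates 2, 3 and 4 with NaAc lay above all samples without, and replicates 1 and 5 reached only the top of that range. The means were 0.721 ± 0.249 and 1.40 ± 0.369 FPKM, and the log2 fold change was 0.89 ± 0.25 (SE, limma adjusted p = 0.0183). The gene rested on 16 to 43 fragments without NaAc and 41 to 86 with it.

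The makeup of the member transcripts shifted with these unequal changes. Summed over the 10 members, the level was 32.6 ± 8.76 FPKM without NaAc and 248.4 ± 93.1 FPKM with it. Csf3 made up 31.2% ± 2.88 of this sum without NaAc and 41.4% ± 2.77 with it (SD, n = 5 each). Csf1 took 19.4% ± 4.38 and 5.04% ± 1.06 of the sum, respectively. The shares of Cxcl5, Lcn2 and Cxcl1 were 13.5%, 11.9% and 12.4% without NaAc and 17.7%, 16.0% and 15.0% with it. Within the NaAc group, replicate 2 was the highest sample for 9 of the 10 members and replicate 5 the lowest for 8. Without NaAc, replicates 4 and 5 were each highest for 4 members.

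**Figure D2:**
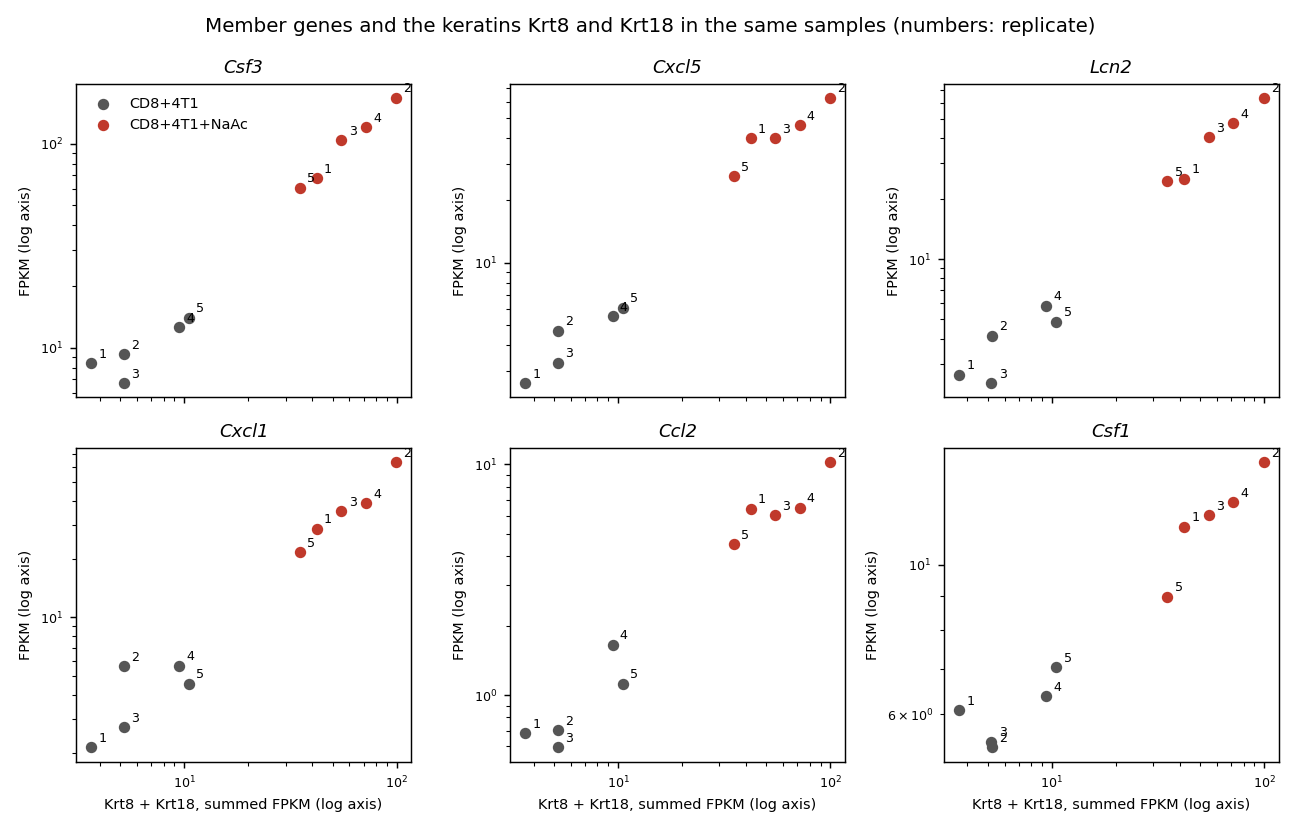
FPKM of 6 member genes plotted against the summed FPKM of Krt8 and Krt18 in the same sample, both on log axes, with the replicate number beside each point. In the panels of Csf3, Cxcl5, Lcn2, Cxcl1 and Ccl2 the 2 groups lie along a similar slope, and Csf1 spans a much smaller range.

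The labelled cell type was checked with the T cell genes Cd3e, at 33.8 ± 1.07 and 26.3 ± 2.06 FPKM, and Cd8a, at 78.6 ± 2.34 and 76.5 ± 4.37 FPKM. Cd3e was lower with NaAc by limma (-0.36 on the log2 scale, adjusted p = 0.000608), and the log2 fold change of Cd8a was -0.04 (adjusted p = 0.559). Of 8 T cell markers, 0 were called higher and 5 lower, against 17.6% and 19.0% of all tested genes. The summed level of the 8 markers was 561.1 to 641.0 FPKM without NaAc and 491.9 to 578.4 FPKM with it.

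Markers of epithelial cells, the class to which 4T1 belongs, moved with the members. Of 13 such markers, 8 passed the filter, 5 were called higher and 0 lower, against 17.6% and 19.0% of all tested genes. Their summed level was 30.9, 31.6, 31.8, 38.4 and 39.1 FPKM in the CD8+4T1 samples. With NaAc it was 73.4, 143.3, 90.4, 109.9 and 66.1 FPKM, and the samples with the highest and lowest sums, replicates 2 and 5, were those that were highest and lowest for most members. The keratins Krt8 and Krt18, structural proteins of simple epithelia, went from 3.42 ± 1.69 to 34.2 ± 13.1 FPKM and from 3.37 ± 1.34 to 26.4 ± 12.7 FPKM (log2 fold changes of 3.33 and 2.89, limma adjusted p = 8.1e-05 and 0.000174). Epcam, Cldn7 and Spint2 did not pass the test, and Krt5, Krt14, Krt19, Cdh1 and Cldn4 were below the filter. Their part in the result was not tested. In bulk RNA, more or fewer cells of a type and more or less RNA per cell cannot be told apart.

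The members were therefore also expressed relative to these markers within each sample. Relative to the summed Krt8 and Krt18, Csf3 stood at 161.1% ± 43.5 without NaAc and 172.1% ± 10.5 with it (SD, n = 5 each). Lcn2 stood at 61.4% ± 15.1 and 66.7% ± 5.19, Cxcl1 at 64.4% ± 25.2 and 62.4% ± 5.10, and Cxcl5 at 68.5% ± 13.4 and 73.9% ± 12.7 of the keratin sum. Ccl2 stood at 14.4% ± 3.62 and 11.7% ± 2.42. For these 5 genes the difference in the log2 ratio was between -0.29 and 0.15, and none passed an exact permutation test over the samples (unadjusted p = 0.5, 0.397, 0.937, 0.460 and 0.198 in the order given, 9 tests). For the genes with the largest fold changes, a difference in their proportion to these keratins was thus not resolved beyond the spread of the samples.

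The other 4 tested members fell relative to Krt8 and Krt18, whose sum rose 8.91-fold by its ratio of means. These falls in ratio follow from the larger rise of the keratins, as Csf1, Il6 and Saa3 were themselves called higher. Csf1 went from 101.8% ± 40.6 to 21.2% ± 5.40 of the keratin sum, Il6 from 13.3% ± 9.49 to 2.43% ± 0.373, Cxcl2 from 15.9% ± 7.56 to 2.04% ± 0.985 and Saa3 from 11.9% ± 4.36 to 3.32% ± 0.788. The differences in log2 ratio were -2.22, -2.18, -3.00 and -1.79 (exact permutation p = 0.00794 for each, unadjusted over 9 tests).

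The whole list of 13 epithelial markers gave another picture for the first 5 genes. Relative to its sum, Csf3 went from 29.3% ± 5.61 to 105.2% ± 12.2, Cxcl5 from 12.8% ± 3.12 to 44.7% ± 5.63, Lcn2 from 11.4% ± 3.23 to 40.7% ± 4.78, Cxcl1 from 11.9% ± 4.44 to 38.0% ± 4.21 and Ccl2 from 2.70% ± 0.971 to 7.05% ± 1.05. The log2 differences were 1.86, 1.84, 1.88, 1.75 and 1.44, with an exact permutation p of 0.00794 for each. On the same scale Csf1 had a log2 difference of -0.49 (exact permutation p = 0.00794), Cxcl2 one of -1.27 (p = 0.0238), Il6 one of -0.46 (p = 0.143) and Saa3 one of -0.06 (p = 0.881). A single gene, the protease inhibitor Spint2, made up 60.8% ± 6.25 of the list's sum without NaAc and 21.2% ± 5.02 with it, at 20.7 ± 0.417 and 19.2 ± 1.40 FPKM. The choice of reference genes thus decided whether the ratio of these 5 members differed between the groups.

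Other cell types that can produce or receive these factors were followed by their own markers. The 10 neutrophil markers summed to 0.810 to 1.37 FPKM without NaAc and 2.41 to 5.17 FPKM with it, with S100a9 at 0 in all samples and S100a8 called higher (0.398 ± 0.318 and 2.94 ± 1.13 FPKM). The 10 monocyte and macrophage markers summed to 25.8 to 35.1 and 26.2 to 30.5 FPKM, with C1qb at 0 and Lyz2 called higher. Most of that sum was Cd68 (25.8 ± 2.97 and 22.8 ± 1.73 FPKM), while Csf1r, Itgam, Fcgr1 and C1qa stayed below the filter. The 7 fibroblast markers summed to 0.894 to 1.35 and 2.57 to 3.74 FPKM, with Col3a1 at 0 and Pdgfra called higher. The 4 endothelial markers summed to 7.19 to 7.79 and 10.3 to 12.5 FPKM, nearly all of it Pecam1, which was called higher. The 4 B cell markers summed to 3.92 to 4.91 and 4.55 to 6.22 FPKM with 0 called, and the 2 NK cell markers to at most 0.292 FPKM. The part of these cells in the result was not tested.

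Genes related to the members by function were examined in 4 lists. Their counts stand beside 17.6% of all tested genes called higher and 19.0% called lower. Among 20 other chemokines and cytokines (ligand relatives), 14 were tested, 4 were called higher and 1 lower, with a median log2 fold change of 0.13. Cx3cl1, the membrane-bound chemokine fractalkine, went from 0.572 ± 0.189 to 4.28 ± 1.66 FPKM (log2 fold change 2.67, limma adjusted p = 5.91e-05). Il1a, an alarmin that signals through the IL-1 receptor, went from 1.04 ± 0.300 to 6.15 ± 1.72 FPKM (2.45, adjusted p = 5.14e-05). Il34, the second ligand of the Csf1 receptor, had 0.135 ± 0.0814 and 1.06 ± 0.670 FPKM (2.00, adjusted p = 0.0259), and Ccl9, a chemokine for Ccr1, had 42.4 ± 7.55 and 118.2 ± 10.9 FPKM (1.49, adjusted p = 1.75e-05). Lif, an Il6-family cytokine, was the 1 gene called lower (-0.42, adjusted p = 0.0142).

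Among 13 acute-phase relatives of Lcn2 and Saa3, 6 were tested, 2 were called higher and 0 lower, with a median log2 fold change of 0.02. Complement C3 went from 3.52 ± 1.23 to 30.5 ± 9.72 FPKM (3.09, limma adjusted p = 3.99e-05), and the copper-carrying Cp from 0.314 ± 0.127 to 2.90 ± 0.848 FPKM (2.87, adjusted p = 3.86e-05). The orosomucoids Orm1, Orm2 and Orm3 did not pass the test. Saa1, Saa2 and Saa4, the relatives of Saa3, were below the filter. Their means were at most 0.0849 FPKM without NaAc and 0.0460 FPKM with it.

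Transcripts for the receptors of the members were mostly scarce. Of 15 receptor genes, 7 were tested, 5 were called higher and 0 lower, against 17.6% and 19.0% of all tested genes. The median log2 fold change of these 7 was 0.53. The Cxcl1, Cxcl2 and Cxcl5 receptor Cxcr2 had mean levels of 0.0158 and 0.00790 FPKM without and with NaAc, and the related Cxcr1 had 0.160 and 0.117 FPKM. The Csf3 receptor Csf3r had 0.00654 and 0.0198 FPKM and the Csf1 receptor Csf1r had 0.0707 and 0.0860 FPKM, so none of these 4 was tested. Ccr2, the receptor for Ccl2 and Ccl7, had 0.633 ± 0.103 and 0.656 ± 0.148 FPKM (0.03, limma adjusted p = 0.923). Both Il6 receptor chains were called higher, Il6ra from 1.10 ± 0.244 to 1.61 ± 0.170 FPKM (0.53, adjusted p = 0.0219) and Il6st from 4.29 ± 0.0952 to 6.82 ± 0.752 FPKM (0.65, adjusted p = 0.000153). Tlr2 and Tlr4, reported receptors of serum amyloid A, had log2 fold changes of 0.998 and 0.50 (adjusted p = 0.00809 and 0.0154), and Ccr1, a Ccl7 receptor, 0.97 (adjusted p = 0.0289). Slc22a17, a receptor for Lcn2, had a log2 fold change of 0.28 (adjusted p = 0.424), and Ccr3, Lrp2 and the atypical chemokine receptors Ackr1 and Ackr2 were below the filter.

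Among 20 regulators of inflammatory transcription, all were tested, 9 were called higher and 3 lower, with a median log2 fold change of 0.18, beside 17.6% called higher and 19.0% called lower of all tested genes. Il17rc, a chain of the IL-17 receptor, went from 0.261 ± 0.107 to 1.44 ± 0.513 FPKM (2.07, limma adjusted p = 0.000449). The C/EBP factors Cebpb, from 13.4 ± 2.61 to 40.6 ± 10.3 FPKM, and Cebpd, from 0.796 ± 0.0921 to 2.13 ± 0.686 FPKM, were called higher (1.57 and 1.27, adjusted p = 0.000162 and 0.000812). Socs3, a feedback inhibitor of Il6 signaling, went from 11.9 ± 3.01 to 26.3 ± 6.07 FPKM (1.13, adjusted p = 0.00110). The 3 genes called lower were the NF-kB subunit genes Nfkb1 (-0.36), Nfkb2 (-0.24) and Rela (-0.21), with adjusted p of 0.000481, 0.00143 and 0.00892.

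**Figure D3:**
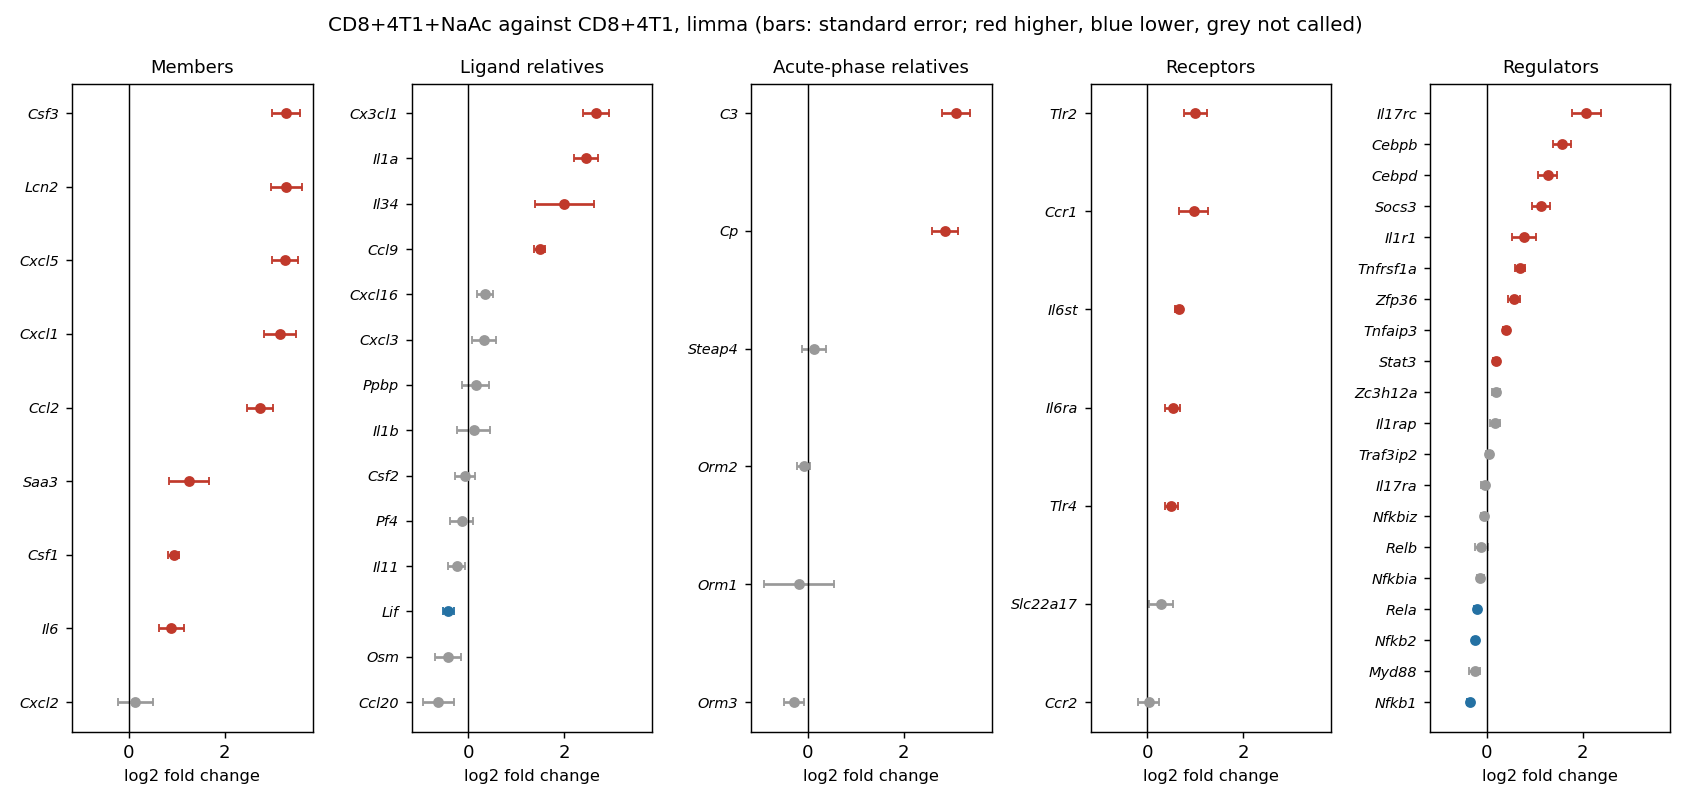
Log2 fold change of CD8+4T1+NaAc over CD8+4T1 for the 9 tested members and the tested genes of the 4 related lists, from limma, with bars for the standard error. Red points were called higher, blue points lower and grey points were not called. The 5 members Csf3, Lcn2, Cxcl5, Cxcl1 and Ccl2 lie above 2.5, as do Cx3cl1, C3 and Cp in the related lists.

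The stability of these calls was examined by changing 1 step at a time. Csf3, Cxcl5, Lcn2, Cxcl1, Csf1 and Ccl2 were called higher each time that 1 of the 10 samples was omitted, with a highest adjusted p of 0.000836 (Csf1, limma). Their log2 fold changes in these fits ranged from 3.09 to 3.46 for Csf3, from 3.08 to 3.42 for Cxcl5, from 3.10 to 3.44 for Lcn2, from 2.95 to 3.33 for Cxcl1, from 2.58 to 2.95 for Ccl2 and from 0.87 to 1.03 for Csf1. Il6 was called in the same fits (adjusted p from 0.0103 to 0.0486) but not with the replicate number as a block (adjusted p = 0.0643).

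**Figure D4:**
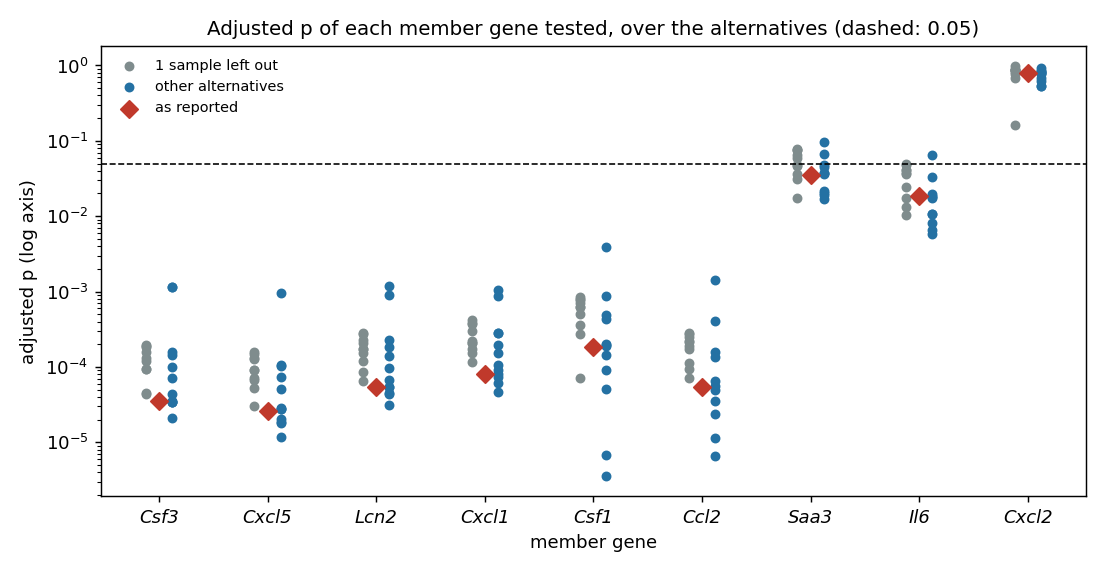
Limma adjusted p on a log axis for the 9 tested members. Red diamonds are the reported fits, grey points leave out 1 sample, blue points are the other alternatives and the dashed line marks 0.05. Points of Saa3 and Il6 lie on both sides of that line, those of Cxcl2 lie above it, and those of the other 6 genes lie below it.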

How the data were processed

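The authors trimmed reads with fastp, aligned them with HISAT2 2.0.5, used StringTie 1.3.3b and counted fragments with featureCounts 1.5.0-p3 (submitters' processing notes), and deposited 1 table of FPKM values with the gene length in bases. The genome build was not given in the sources used here, and the table's positions are not those of GRCm38. Because 100% of FPKM values corresponded to whole fragments (tolerance 0.1), fragments per gene could be recovered. Depth was similar in all samples. The upper limit given for a value of 0 covers counting error only, whereas the 95% intervals of log2 fold changes come from limma and rest on the spread between samples.

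Log2(FPKM + 0.1) of genes whose mean reached 0.5 FPKM was fitted with limma 3.58.1 in R 4.3.3 (trend and robust moderation, 5 against 5 samples, Benjamini-Hochberg adjustment over 15710 genes). Fold changes on this scale understate those of low genes. Ratios within samples were compared by two-sided exact permutation tests (252 arrangements, SciPy 1.17.1). Named genes were all members, Krt8, Krt18, Cd3e and Cd8a, the 4 called genes with the largest change of each related list, and the receptors of members. Other genes were named after their values were seen, and the result of 1 marker gene is not reported here. The members and lists were chosen with earlier results of these data known. The fit was tested on simulated data with fewer changed genes than here, 1 spread setting for every gene and no sample set apart. That test does not cover these features of the data. Alternatives covered pseudocount, filter, scaling, moderation, voom on the recovered fragments, replicate block and each sample left out. Voom without a filter was added after seeing the data.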

Additional observations from a re-analysis of the deposited data

How the results depend on the processing

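The number of members called higher was 8, and 5 when the mean had to reach 5 FPKM for a gene to be tested, since only 5 members pass that filter. It ranged from 7 to 8 when a sample or both samples of replicate 1 were left out, and no member was called lower in any alternative. With the replicate block it was 7, Il6 being lost, and the pairing changed no other member's call. Same-numbered samples did not deviate together (correlations of deviations from -0.03 to 0.07, 2 of 5 samples correlating best with their own number). The labels do not say whether the numbers pair the samples, and weak correlations over the tested genes do not exclude it. The voom fit without a filter called 8 members. The log2 fold change of Saa3 kept its direction, but its call was also lost without a filter (limma adjusted p = 0.0660) and without replicate 1 of both groups (0.0964). The direction of Cxcl2 was reversed without CD8+4T1 replicate 1 or 3 and without replicate 1 of both groups, with log2 fold changes from -0.11 to 0.47 over the fits that left samples out. With Krt8 and Krt18 in place of all 13 epithelial markers, the log2 difference in the ratio was 0.15 for Lcn2, 0.024 for Cxcl1, 0.11 for Cxcl5, 0.13 for Csf3, -0.29 for Ccl2 (reversed), -1.79 for Saa3 and -2.18 for Il6. The cause was not tested. When 1 sample was left out, the log2 difference against all 13 markers ranged from -0.34 to 0.078 for Saa3, which reversed in 5 fits, and from -0.69 to -0.26 for Il6, which passed the exact permutation test only without CD8+4T1 replicate 4. Rescaling all samples to the same total or to the T cell markers moved the median log2 fold change of all tested genes from -0.02 to 0.15 and 0.16, and 8 members were called higher under both. Depth limits Ccl7, with 16 and 44 fragments in all without and with NaAc, and Ccl2 without NaAc, with 11 to 31 fragments per sample.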
